A study of Mus musculus with 6 samples.

Results

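The axoneme is the microtubule core of a cilium, and the expression of genes for its internal parts was examined here in the vestibular sensory epithelium of mice exposed to the nitrile 3,3'-iminodipropionitrile (IDPN), which damages the hair cells (HCs), the sensory cells of the inner ear. The genes were taken by name, as the protein-coding rows of the deposited table whose symbols begin with Cfap, Rsph, Tekt or Drc followed by a digit, together with Hydin, Spef1, Spef2, Spag6, Spag6l, Spag16, Spag17, Iqcg, Capsl and Ccdc33. The rule gave 52 of the 52636 genes in the table, of which 22027 were protein-coding. It reads names alone. Capsl and Ccdc33 are, however, among the genes that the study selected as lower in comparisons that included these mice. Their direction is therefore not independent evidence. RNA-seq was done on 3 Control and 3 IDPN libraries, each from 1 male 129S1/SvImJ mouse, whose 2 utricles and 6 cristae were pooled. Per the study's methods, the mice were 2 to 4 months old when exposure began, and tissue was taken on its last day. The exposed animals drank water with 30 mM IDPN over 8 weeks, and the others drank water without it. No genetic alteration was given for any animal. All p-values therefore measure the spread between 3 animals per group, and a code in the animals' titles sets all Control animals apart from all IDPN animals, so a difference tied to that code cannot be told apart from the treatment.

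In a motile axoneme, a ring of doublet microtubules surrounds a central pair of single microtubules. The central pair carries projections, and radial spokes reach from each doublet towards them, while the nexin-dynein regulatory complex (N-DRC) links neighbouring doublets and the dynein arms drive sliding. Tektins and the microtubule inner proteins line the inside of the doublets. In the vestibular organs the axoneme is best known from the kinocilium, the single true cilium that stands beside the actin-based stereocilia of each HC. Supporting cells carry a primary cilium, whose axoneme lacks a central pair.

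Promoter windows were searched, as a description only, for the letters that factors of ciliary genes are known to prefer. RFX factors bind X-boxes, which are made of paired short sites, upstream of ciliary genes, and FOXJ1 is the forkhead factor that drives motile cilium genes. RefSeq windows of 250 bases before to 50 after a gene's start (GRCm38.p6) were available for 43 of the 52 genes. The RFX site letters GTTGCC or GTTACC, read on both strands, were present for 25 of these 43 genes (58.1%), against 20.8% of all 27025 genes with a window. They were present for 12 of 21 genes called lower after IDPN (57.1%) and for 11 of 18 genes tested but not called (61.1%). GTTGCC alone was in 41.9% of the 43 genes and 14.1% of all genes, and GTTACC in 25.6% and 8.16%. The forkhead letters TGTTTAC, also on both strands, were in 3 of the 43 (6.98%) and in 4.05% of all genes. A match of letters is a description and does not show binding, and a gene with several start sites had several windows.

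The 4 windows below are cut to 140 bases before and 10 after the start, in the direction of the gene, with every match to the RFX site letters in capitals. They show 2 genes that fell and hold 3 matches each (Spag16 and Cfap161), a gene that fell and holds none (Cfap206), and a gene that was not called and holds 2 (Hydin). The places are chr1:69826830-69826979 (plus strand) for Spag16, chr7:83794830-83794979 (minus strand) for Cfap161, chr4:34730197-34730346 (minus strand) for Cfap206 and chr8:110266837-110266986 (plus strand) for Hydin.
Spag16: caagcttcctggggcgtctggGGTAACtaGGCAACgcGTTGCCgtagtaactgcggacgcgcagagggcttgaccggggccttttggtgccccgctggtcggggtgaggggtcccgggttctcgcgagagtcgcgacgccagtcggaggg
Cfap161: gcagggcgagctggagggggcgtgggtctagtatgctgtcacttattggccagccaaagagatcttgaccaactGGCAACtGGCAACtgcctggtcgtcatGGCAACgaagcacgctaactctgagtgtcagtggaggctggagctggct
Cfap206: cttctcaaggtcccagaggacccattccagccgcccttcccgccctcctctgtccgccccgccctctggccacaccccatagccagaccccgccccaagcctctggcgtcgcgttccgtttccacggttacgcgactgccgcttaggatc
Hydin: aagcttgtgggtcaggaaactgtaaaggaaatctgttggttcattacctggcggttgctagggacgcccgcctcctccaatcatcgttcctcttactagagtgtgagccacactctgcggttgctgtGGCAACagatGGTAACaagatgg
The matches of Spag16 began 119, 111 and 103 bases before the start and those of Cfap161 66, 59 and 39 bases before it. Those of Hydin began 13 and 3 bases before the start, so that its last match spans it.

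Of the 52 genes, 48 were abundant enough for a DESeq2 Padj (the Benjamini-Hochberg adjusted p), and 47 averaged at least 10 normalized counts. Normalized counts are the deposited counts divided by a size factor for each library. A gene was called when its Padj was under 0.05 and its fold change beyond 1.5. DESeq2 called 23 of the 48 genes lower after IDPN (47.9%), against 3.42% of all 17650 genes tested and 3.93% of the protein-coding genes tested. None was called higher, and none was higher at an unadjusted p under 0.05, whereas 2.32% of all genes were called higher. With Padj alone 24 were lower (3.9% of all genes). edgeR called 20 lower, all among the 23, and 0 higher, where it called 2.19% of all genes lower. The 23 include Cfap126, Capsl and Ccdc33, which the study had selected as lower with these animals included. The 4 genes with no Padj were Spag17, Spag6, Rsph6a and Cfap99, with means of 0 to 4.24 normalized counts in either group.

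**Figure D1:**
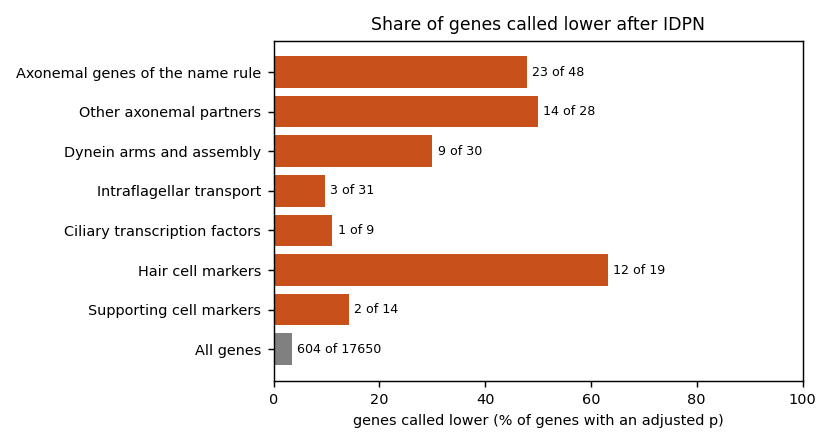
Share of genes called lower by DESeq2 after IDPN, in percent of the genes with an adjusted p, for the axonemal genes of the name rule, for related lists and marker lists, and for all genes in grey. The axonemal genes stand at 23 of 48, the hair cell markers at 12 of 19 and all genes at 604 of 17650.

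Every IDPN library was below every Control library for 31 of the 48 genes (64.6%), among them all 23 that were called, and no gene had every IDPN library above every Control library. Over all genes tested the same held for 11.4% in the lower and 11.1% in the higher direction. The median log2 fold change of the 47 genes was −0.73, with 42 below and 5 above 0. The median of all 16202 genes with a mean of at least 10 normalized counts was 0.01. These were not matched to the 47 in abundance. Taken library by library, the median of the 47 genes lay −0.0087, 0.010 and 0.10 (log2) from the Control mean in the Control animals and −0.68, −0.76 and −0.79 from it in IDPN 1, 2 and 3. The 3 IDPN animals were thus close to each other, and no single one carried the difference. Among the 23 called genes IDPN 1 was the lowest library for 4, IDPN 2 for 10 and IDPN 3 for 9.

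**Figure D2:**
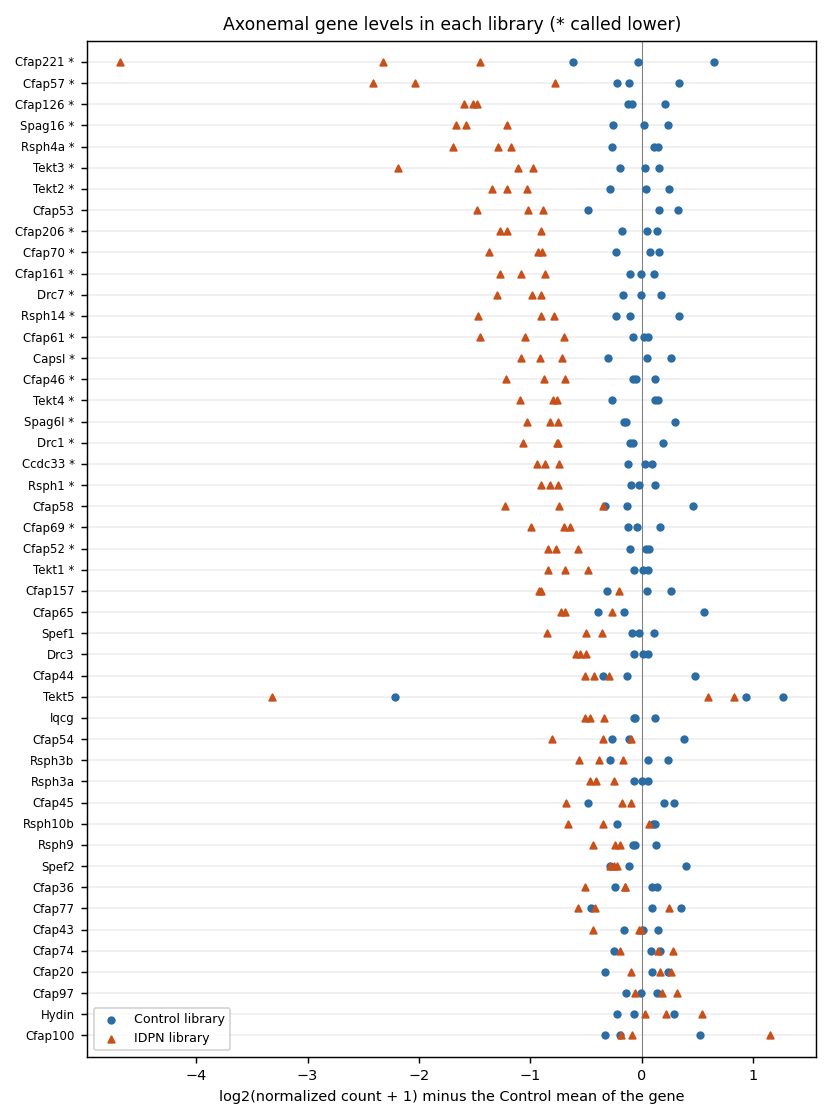
Level of the 47 axonemal genes that averaged at least 10 normalized counts, shown for each library, as log2(normalized count + 1) minus the gene's mean over the Control libraries, ordered by DESeq2 log2 fold change, with called genes marked by an asterisk. IDPN libraries (triangles) lie left of the Control libraries (circles) without overlap for all 23 called genes, and mix with them in the lower rows, such as Cfap20 and Hydin.

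The size of these changes depended on how libraries were scaled. With size factors set by total counts in place of the median of ratios, log2 fold changes moved upwards by a median of 0.25 over all genes, and 6 of the genes examined remained called lower, against 1.28% of all genes tested in that fit. These 6 were Cfap126, Cfap161, Cfap206, Rsph4a, Spag16 and Tekt2, which also kept their call under each of the other 12 alternative fits. The median of the 47 genes was then −0.48 and that of all genes 0.26. The distance between the genes examined and all genes was −0.74 under either scaling. Other size factors move all genes by nearly the same amount, so this distance could hardly change and is no check of the result. Changes are given relative to the typical gene, and the 17 other called genes lost their call under at least one alternative.

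**Figure D3:**
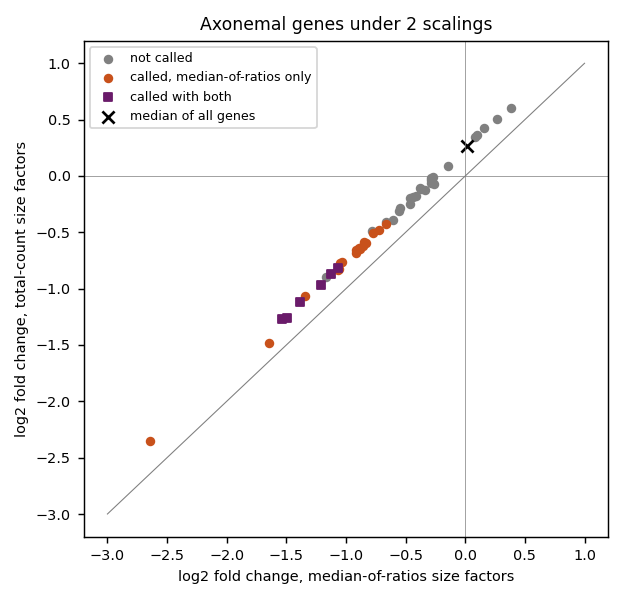
DESeq2 log2 fold change of the 47 axonemal genes with median-of-ratios size factors (horizontal axis) against that with total-count size factors (vertical axis), with the median of all genes as a cross. All points lie above the diagonal, by about the 0.25 that the median gene moved, and the 6 squares are the genes called under both scalings.

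The summed normalized count of the 52 genes was 41673, 41191 and 40743 in the Control libraries and 26720, 27750 and 26444 in the IDPN libraries. The sum thus went from 41202 ± 465 to 26971 ± 688 (SD, n = 3 each), or 65.5% of Control, with both groups tight and far apart. As a share of each library's total, which is not scaled to the median gene, the 52 genes took 813, 842 and 1056 CPM (counts scaled to a fixed library total) in Control and 777, 634 and 700 CPM in IDPN. That share was 77.9% of Control, without overlap. In such bulk libraries fewer cells of one type and less RNA per cell cannot be told apart.

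Markers of HCs moved in the same direction, and their part in the result was not tested. Of 19 HC markers, 12 were called lower and 0 higher, with a median log2 fold change of −0.75. Over all genes tested, 3.42% were called lower and 2.32% higher. Pou4f3, a transcription factor of HCs, had 6831, 6387 and 5843 normalized counts in Control and 3105, 3261 and 3155 in IDPN, and so was detected in every library. Myo7a, the unconventional myosin of HC bundles, had 643, 680 and 1074 in Control and 947, 683 and 793 in IDPN, with full overlap and a log2 fold change of 0.01 (DESeq2 Padj = 0.987). The summed HC markers ran from 59425 to 61150 in Control and from 30901 to 35911 in IDPN when Spp1, which alone exceeded all others together, was left out. With Spp1 they ran from 818297 to 1069840 and from 592377 to 798625. The 14 supporting cell markers had 2 genes called lower (Gjb6 and Sparcl1), 1 higher (Sox10) and a median of −0.37, and their sum ran from 474921 to 689219 in Control and from 359073 to 427749 in IDPN.

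Markers of airway-type multiciliated and secretory cells had few counts, with a lower sum after IDPN, and their part in the result was not tested. Of 15 such markers Cdc20b, Gmnc, Reg3g, Scgb1a1, Sntn and Tmem212 had no count in any of the 6 libraries. Their summed normalized count was 120, 140 and 142 in Control and 53.8, 45.2 and 58.8 in IDPN, without overlap. The 3 that could be tested had a median log2 fold change of −1.60. Among those with too few counts to test, Scgb3a1, Mcidas and Bpifa1 had a higher mean in IDPN, and Bpifb1, Deup1 and Ltf a lower one. Fam216b was called lower, from 30.3, 56.6 and 24.0 to 2.48, 0 and 2.80 normalized counts. The mucin gene Muc5b had 53.4, 46.2 and 23.1 in Control and 10.8, 7.03 and 22.4 in IDPN and was not called (−1.60, DESeq2 Padj = 0.108). Ccno, a gene of the multiciliated programme, had 25.5, 32.3 and 69.4 in Control and 24.0, 30.1 and 31.7 in IDPN, with overlap, and was not called either (−0.58, DESeq2 Padj = 0.657). Of the other cell types, 0 of 10 macrophage markers (median 0.53, summed range 2124 to 2983 in Control and 2549 to 3789 in IDPN), 0 of 8 Schwann cell markers (median −0.26, 103240 to 226259 and 91856 to 111362) and 0 of 7 stromal markers (median 0.36, 20505 to 39077 and 36118 to 38785) were called lower. Called higher were 0 macrophage markers, 1 Schwann cell marker (Sox10, also on the supporting cell list) and 1 stromal marker (Postn, log2 fold change 1.53, DESeq2 Padj = 0.0298).

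The central pair and its projections were represented by 12 genes, 10 of them with a Padj, and 5 were called lower (Cfap221, Spag16, Cfap46, Spag6l and Cfap69). Their median log2 fold change was −0.67, and their summed count went from 5634 ± 521 to 3824 ± 373 (SD, n = 3 each). Their log2 fold changes ran from −2.64 (Cfap221, at few counts) and −1.49 (Spag16) to 0.26 (Hydin). Beside this count of called genes, and those of the groups below, stands the 3.42% of all genes tested that were called lower.

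Spag16 (ENSMUSG00000053153.14, chr1:69826970-70725132, plus strand) encodes a central pair projection protein and had 334, 275 and 386 normalized counts in Control and 103, 109 and 142 in IDPN. The highest IDPN animal was far below the lowest Control animal. Its log2 fold change was −1.49 (SE 0.25, DESeq2 Padj = 4.33e-07, edgeR adjusted p = 0.00722). Spag6l, the most abundant gene of the group and a close relative of the barely detected Spag6, had 1263, 1251 and 1717 in Control and 830, 683 and 786 in IDPN. The groups were separate, with Control 3 highest, and the log2 fold change was −0.88 (SE 0.19, DESeq2 Padj = 0.000218). Because the counting divides reads that match several genes, the split between Spag6l and Spag6 is uncertain, though Spag6 had at most 3.64 normalized counts in any library.

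Cfap221, of a projection on one of the central microtubules, had 15.8, 39.2 and 24.0 normalized counts in Control and 4.14, 0 and 8.40 in IDPN. These are few counts, and the log2 fold change of −2.64 (SE 0.88, DESeq2 Padj = 0.0459) was not called by edgeR (adjusted p = 0.138) or in 5 of the 6 fits with a library left out. Cfap46 (−0.91) and Cfap69 (−0.77), both of central pair projections, fell by amounts near that of Spag6l and were not called under total-count scaling (Cfap46 −0.65, Cfap69 −0.51).

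Hydin, which encodes the large projection protein whose loss causes hydrocephalus, had 651, 585 and 839 normalized counts in Control and 996, 798 and 700 in IDPN. The groups overlapped, with the highest value in an IDPN animal, and the log2 fold change was 0.26 (SE 0.21, DESeq2 Padj = 0.592). Exons of Hydin overlap those of Gm26832 on the opposite strand. Cfap74, another projection gene, had 341, 255 and 322 in Control and 370, 266 and 336 in IDPN, again interleaved (log2 fold change 0.08, SE 0.23, DESeq2 Padj = 0.917). Spef1, a microtubule-bundling protein of the central pair, was lower in every IDPN library but not called (−0.56, DESeq2 Padj = 0.0781), and its exons overlap those of Cenpb on the same strand. Cfap54 (−0.42) and Spef2 (−0.28) overlapped between groups. Spag17 had counts in 1 Control library alone.

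The ratio of 2 genes within a library needs no scaling between libraries. The pairs below were chosen after their values were seen, and the ratios are descriptions with no test. The ratio of Spag16 to Hydin was 0.512, 0.469 and 0.460 in Control and 0.103, 0.137 and 0.203 in IDPN. That of Spag6l to Hydin was 1.94, 2.14 and 2.05 in Control and 0.833, 0.855 and 1.12 in IDPN. Both ratios were lower in every IDPN animal, by −1.76 and −1.14 on the log2 scale.

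**Figure D4:**
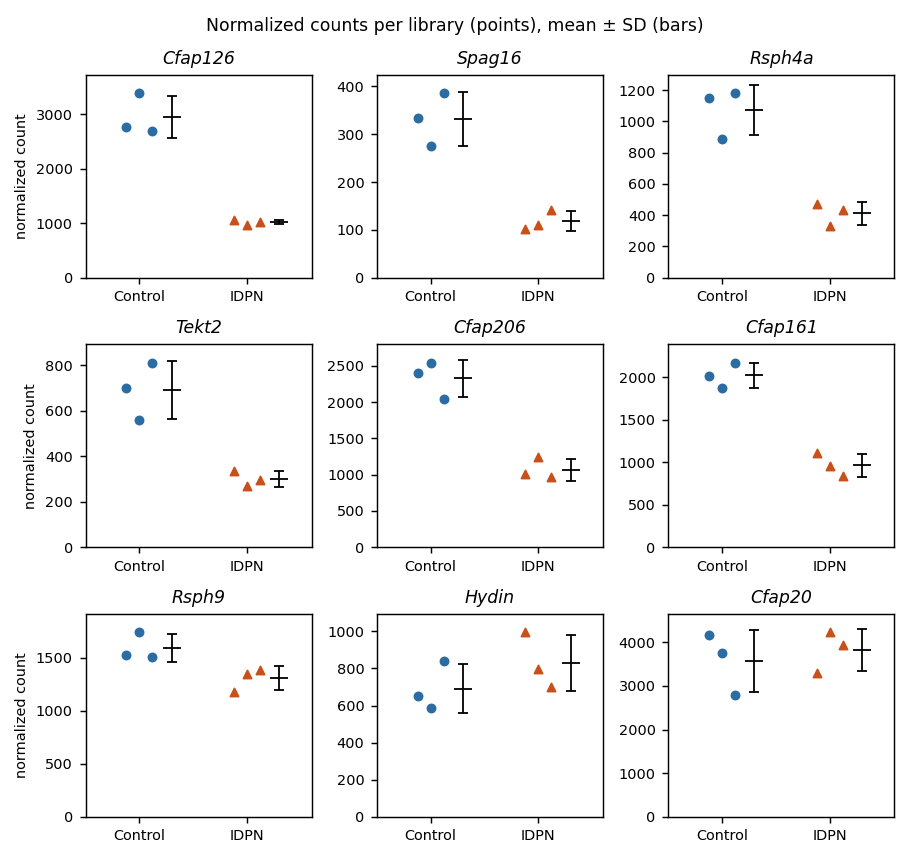
Normalized counts of 9 axonemal genes per library, Control as circles and IDPN as triangles, with the mean and SD of each group (n = 3) beside the points and all axes starting at 0. Cfap126, Spag16, Rsph4a, Tekt2, Cfap206 and Cfap161 are the 6 genes called in every fit. Rsph9, which lies lower by a smaller amount, and Hydin and Cfap20, where groups overlap, were not called.

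The radial spoke genes numbered 10, 9 with a Padj, and 5 were called lower (Rsph4a, Cfap206, Rsph14, Cfap61 and Rsph1). All 9 had a negative log2 fold change, with a median of −0.83, and 7 of the 9 did not overlap between groups. Over all genes tested, 11.4% were lower without overlap. The summed count of the spoke genes went from 8075 ± 346 to 4825 ± 180 (SD, n = 3 each).

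Rsph4a (ENSMUSG00000039552.14, chr10:33905111-33916021, plus strand), a protein of the spoke head, had 1151, 885 and 1182 normalized counts in Control and 472, 328 and 434 in IDPN. The groups were well apart, and the log2 fold change was −1.38 (SE 0.21, DESeq2 Padj = 4.48e-09, edgeR adjusted p = 0.00388). Cfap206 (ENSMUSG00000028294.15, chr4:34688559-34730206, minus strand), which helps to dock a spoke to its doublet, had 2398, 2547 and 2049 in Control and 1005, 1244 and 963 in IDPN. Each IDPN value was thus well under the lowest Control value, with a log2 fold change of −1.12 (SE 0.18, DESeq2 Padj = 2.63e-08, edgeR adjusted p = 0.00349). Rsph14, with 115, 171 and 125 normalized counts in Control and 77.8, 48.2 and 71.9 in IDPN, had a log2 fold change of −1.05 (SE 0.33, DESeq2 Padj = 0.0278). That call was the least steady of the spoke genes, since edgeR did not make it (adjusted p = 0.0969) and 4 of the 6 fits without a library lost it.

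Rsph9, a second spoke head protein and one of the most abundant genes per length, had 1525, 1741 and 1509 normalized counts in Control and 1175, 1348 and 1388 in IDPN. The groups did not overlap, yet the difference was small (log2 fold change −0.29, SE 0.16, DESeq2 Padj = 0.369). The ratio of Rsph4a to Rsph9 was 0.755, 0.509 and 0.783 in Control and 0.401, 0.243 and 0.313 in IDPN, a difference of −1.10 on the log2 scale without overlap. Rsph1, also of the spoke head, fell by 0.83 on the log2 scale, between the other spoke head genes. Cfap61, of the complex at the spoke base, fell by 1.04, and its exons overlap those of Crnkl1 on the opposite strand. None of these members besides Rsph4a and Cfap206 was called under total-count scaling.

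Rsph3a and Rsph3b are near-identical copies of the gene for a spoke stalk protein, and the division of reads between them is uncertain. Their sum was 1648, 1505 and 1231 normalized counts in Control and 1004, 1097 and 1278 in IDPN. The groups overlapped by a single pair of animals, with a log2 ratio of means of −0.38, and neither copy was called. Rsph10b, not called either (−0.29), shares exons with Pms2, and Rsph6a, the relative of Rsph4a known from sperm, had at most 2.31 normalized counts.

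The N-DRC was represented by Drc1, Drc3, Drc7 and Iqcg, and for all 4 the groups did not overlap, with IDPN below Control and 2 called. Over all genes tested, 11.4% were lower without overlap and 3.42% were called lower. The median log2 fold change of the 4 was −0.70 and their summed count went from 5396 ± 237 to 3341 ± 220 (SD, n = 3 each). Drc1, a scaffold of the complex, had 1999, 2036 and 2456 normalized counts in Control and 1278, 1274 and 1029 in IDPN. The log2 fold change was −0.86 (SE 0.17, DESeq2 Padj = 5.14e-05). Drc7 had 570, 510 and 649 in Control and 307, 289 and 232 in IDPN and had a log2 fold change of −1.06 (SE 0.21, DESeq2 Padj = 2.59e-05). The groups lay apart for both.

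Drc3 had 1776, 1720 and 1630 normalized counts in Control and 1211, 1165 and 1138 in IDPN, among the tightest groups of the set. Its log2 fold change of −0.54 (SE 0.15, DESeq2 Padj = 0.00855) passed the adjusted p and missed the fold change threshold. It was the only one of the 48 genes in that position. Iqcg, also known as Drc9, was not called (−0.44, DESeq2 Padj = 0.107), and its exons overlap those of Lrch3 on the opposite strand. The ratio of Drc7 to Iqcg was 0.554, 0.564 and 0.713 in Control and 0.463, 0.386 and 0.338 in IDPN, without overlap, as a description of a pair chosen after its values were seen.

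The tektins and inner proteins of the doublet held the largest share of counts, and 7 of 11 were called lower (Cfap126, Tekt3, Tekt2, Cfap161, Tekt4, Cfap52 and Tekt1), each also by edgeR. Their median log2 fold change was −0.89, and their summed count went from 15729 ± 845 to 10090 ± 683 (SD, n = 3 each). In normalized counts per kilobase of merged exons, Tekt1 (1319), Cfap126 (1119), Cfap52 (946), Rsph9 (904), Cfap20 (831) and Cfap206 (685) were the most abundant of all 52 genes over the 6 libraries. Of these 6, Rsph9 and Cfap20 were not called.

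Cfap126 (ENSMUSG00000026649.14, chr1:171113918-171126967, plus strand), also called Flattop and known for basal body positioning, had 2769, 3389 and 2698 normalized counts in Control and 1054, 973 and 1026 in IDPN. The IDPN animals lay within a narrow range at 34.5% of the Control mean. The log2 fold change was −1.54 (SE 0.16, DESeq2 Padj = 2.58e-18, edgeR adjusted p = 0.000605), the lowest Padj of the 48 genes. Cfap126 is among the genes that the study selected as lower both in these same animals and in its rat comparisons. The values here are therefore not independent evidence of its direction. In Control libraries it was as abundant per kilobase as Tekt1, at 1664 against 1618, whereas over all 6 libraries it was behind it.

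Cfap161 (ENSMUSG00000011154.17, chr7:83774101-83794880, minus strand), an inner protein of the doublet, had 2012, 1878 and 2173 normalized counts in Control and 1105, 950 and 836 in IDPN. The groups were widely separate, and the log2 fold change was −1.07 (SE 0.17, DESeq2 Padj = 6.98e-08, edgeR adjusted p = 0.00406). Tekt2 (ENSMUSG00000028845.15, chr4:126322121-126325688, minus strand) had 702, 560 and 812 in Control and 335, 268 and 295 in IDPN, with a log2 fold change of −1.21 (SE 0.21, DESeq2 Padj = 1.15e-06, edgeR adjusted p = 0.00730). Its exons overlap the antisense gene Gm12945. Tekt3 had 223, 261 and 284 in Control and 129, 55.2 and 118 in IDPN. IDPN 2 was lowest, and the log2 fold change was −1.34 (SE 0.32, DESeq2 Padj = 0.000978, edgeR adjusted p = 0.0486).

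Tekt1 and Cfap52, the most abundant genes of the group beside Cfap126 per length, fell by amounts near the fold change threshold. Tekt1 had 2728, 2644 and 2503 normalized counts in Control and 1461, 1876 and 1624 in IDPN, a log2 fold change of −0.67 (SE 0.16, DESeq2 Padj = 0.00148). Cfap52 had 2856, 2813 and 2540 in Control and 1527, 1835 and 1600 in IDPN, a log2 fold change of −0.73 (SE 0.16, DESeq2 Padj = 0.000216). In both, the IDPN 2 animal was highest among the IDPN animals, and groups did not overlap. Tekt1 lost its call without IDPN 1, where its fold change (−0.58) was just under the threshold. Tekt4 (−0.89, DESeq2 Padj = 0.00359) fell as well, and its call was lost without Control 2. The ratio of Tekt2 to Tekt1 overlapped between groups.

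Cfap20, of the inner junction of the doublet and a gene also found in primary cilia, had 4168, 3757 and 2800 normalized counts in Control and 3300, 4236 and 3942 in IDPN. The groups were interleaved (log2 fold change 0.10, SE 0.19, DESeq2 Padj = 0.875). The ratio of Cfap126 to Cfap20 was 0.664, 0.902 and 0.963 in Control and 0.320, 0.230 and 0.260 in IDPN, a log2 difference of −1.64. Cfap45, an inner protein like Cfap52, had 297, 509 and 478 in Control and 259, 391 and 368 in IDPN and was not called (log2 fold change −0.34, SE 0.26, DESeq2 Padj = 0.566). Cfap53 was lower in every IDPN library at few counts (68.2 ± 18.9 and 30.3 ± 6.36, SD, n = 3 each) and was not called (−1.17, DESeq2 Padj = 0.0861), but it was without Control 3. Tekt5, with a mean of 14.2 in Control, had a standard error of 1.13, too wide to show a change of the size seen in the other tektins.

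**Figure D5:**
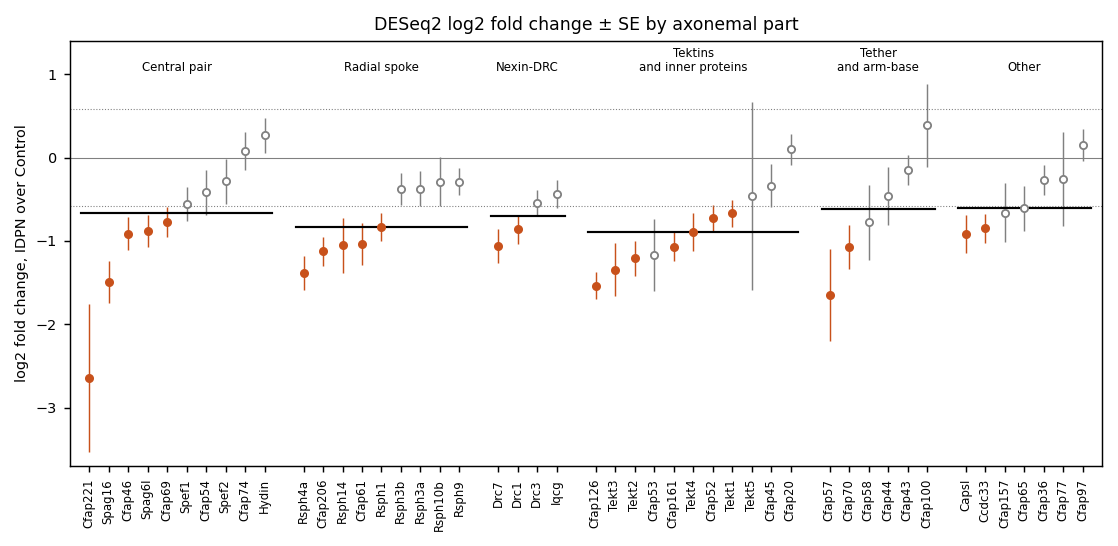
DESeq2 log2 fold change (IDPN over Control) with its standard error for the 47 axonemal genes, grouped by part of the axoneme, with filled points for called genes, a black line at each group's median and dotted lines at the fold change threshold. Medians of the 6 groups lie between −0.89 and −0.61, and each group but the N-DRC and the radial spokes holds a gene above 0.

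Genes of the tether and of the bases of the dynein arms numbered 7, and 2 were called lower (Cfap57 and Cfap70), 1 of them by edgeR. The median log2 fold change was −0.62 and the summed count went from 1845 ± 175 to 1510 ± 239 (SD, n = 3 each). Cfap70, known for a role at the outer dynein arm, had 251, 203 and 265 normalized counts in Control and 124, 128 and 91.5 in IDPN. The groups lay apart, with a log2 fold change of −1.07 (SE 0.26, DESeq2 Padj = 0.00182, edgeR adjusted p = 0.0364). Cfap57, which helps to assemble inner dynein arms, had 46.1, 49.6 and 68.5 in Control and 12.4, 31.1 and 9.33 in IDPN. The log2 fold change, −1.65 (SE 0.55, DESeq2 Padj = 0.0439), was not called by edgeR (adjusted p = 0.131) or in 5 of the 6 fits without a library.

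Cfap43, a tether protein and by far the most abundant gene of that group, had 1345, 1199 and 1482 normalized counts in Control and 1333, 1312 and 990 in IDPN. The groups overlapped, with a log2 fold change of −0.15 (SE 0.18, DESeq2 Padj = 0.777) that turned to 0.09 under total-count scaling, and exons are shared with Itprip. Its partner Cfap44 was not called (−0.46), nor were Cfap58 (−0.78), Cfap73 (−0.86) and Cfap100 (0.39), all with means under 100 normalized counts in either group.

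Among the 8 genes left over from the groups above, 2 were called lower, the calcyphosine-like gene Capsl and the coiled-coil gene Ccdc33. Being left over does not mean that a gene has no known place in the axoneme. Capsl had 351, 447 and 519 normalized counts in Control and 263, 230 and 204 in IDPN, a log2 fold change of −0.92 (SE 0.23, DESeq2 Padj = 0.00226). Ccdc33 had 1045, 1086 and 936 in Control and 609, 560 and 533 in IDPN, a log2 fold change of −0.85 (SE 0.17, DESeq2 Padj = 4.62e-05). Both were separate between groups, and neither was called under total-count scaling. Both are, like Cfap126, among the genes that the study selected as lower with these animals included, and the antisense genes Gm16130 and Gm16131 overlap exons of Ccdc33.

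Cfap36, whose protein resembles binders of the small GTPase ARL3, was the most abundant of these 8 genes, with 2173, 2103 and 1674 normalized counts in Control and 1381, 1782 and 1780 in IDPN. The groups overlapped (log2 fold change −0.27, SE 0.18, DESeq2 Padj = 0.494). Cfap97 had 543, 448 and 492 in Control and 615, 473 and 561 in IDPN, also overlapping (log2 fold change 0.15, SE 0.19, DESeq2 Padj = 0.782). Exons of Cfap97 overlap those of Snx25 on the opposite strand. Cfap65 (−0.61), Cfap157 (−0.66) and Cfap77 (−0.26) were not called. The groups of all 3 overlapped, and the means of Cfap77 were under 30 normalized counts.

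Other genes of the axoneme, from lists of the same pathway, were counted with the same test, and those named here as examples were chosen with their values known. Of 28 tested partners of the spokes, N-DRC and doublets, 14 were called lower and 0 higher (edgeR 9), with a median log2 fold change of −0.62. That is 50% of them called lower, against 3.42% of all genes tested. Dnajb13, of the radial spoke, fell by 1.05 (DESeq2 Padj = 1.13e-07), and Ccdc39 and Ccdc40, the ruler proteins of the doublet, fell by 0.67 and 0.83 (DESeq2 Padj = 0.0313 and 0.000115). Gas8, also known as Drc4, was not called (0.03, DESeq2 Padj = 0.972).

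Of 30 tested genes for dynein arms and their assembly, 9 were called lower and 0 higher (edgeR 7), with a median of −0.55. That is 30% of them called lower, against 3.42% of all genes tested. The axonemal dynein heavy chains Dnah8 (−1.42), Dnah1 (−1.10) and Dnah5 (−0.78) were among the 9, and so was the outer arm docking gene Armc4 (−1.01, DESeq2 Padj = 5.19e-07). Dnaaf5, an assembly factor, was the gene of this list with the highest value among those with means over 100 (0.93, DESeq2 Padj = 0.113), from 103, 302 and 453 in Control to 611, 552 and 473 in IDPN.

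Intraflagellar transport builds every kind of cilium. Of 31 tested genes 3 were called lower (Ttc30a1, Ttc30a2 and Kifap3) and 0 higher (edgeR 2), with a median log2 fold change of −0.15. That is 9.68% of them called lower, against 3.42% of all genes tested. Ttc30a1 and Ttc30a2 are close copies, so their split is uncertain. Kif3a, a subunit of the kinesin that carries the cargo, had 3033, 2701 and 2835 normalized counts in Control and 2847, 2834 and 2717 in IDPN, fully overlapping (−0.03, DESeq2 Padj = 0.958). The difference between this list and the axonemal genes was not tested.

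Of 9 tested transcription factors of ciliary genes, 1 was called lower and 0 higher (edgeR 0), with a median of 0.06. That single gene is 11.1% of them, against 3.42% of all genes tested. Rfx3 had 455, 527 and 532 normalized counts in Control and 313, 284 and 384 in IDPN, without overlap (log2 fold change −0.63, SE 0.21, DESeq2 Padj = 0.0396, edgeR adjusted p = 0.0841). Foxj1 had 246, 305 and 492 in Control and 176, 249 and 151 in IDPN. The Foxj1 groups overlapped by a single pair of animals, and the log2 fold change of −0.86 (SE 0.30, DESeq2 Padj = 0.0568, edgeR adjusted p = 0.155) was not called. Rfx1 (0.02) and Rfx2 (−0.40) were not called, and Gmnc, of the multiciliated programme, had no count in any library.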

How the data were processed

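Estimated counts (expected counts) per gene were deposited as whole numbers. Per the labels and the study's methods, the authors aligned reads with STAR 2.5.3a to GRCm38 and estimated the counts with RSEM 2.3.0 on GENCODE M15, with no normalization. Libraries followed SMART-seq2 from oligo-dT primers and 6 to 11 ng of RNA, with 8 cDNA and 12 library PCR cycles and no molecular identifiers, so counting error alone understates the error. Totals ran from 40474847 to 43566332 counts per library and size factors from 0.825 to 1.21.

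DESeq2 1.42.0 (R 4.3.3, Wald test, median-of-ratios size factors, no covariate) was fitted on all genes, with the thresholds named in the report. Benjamini-Hochberg adjustment ran over the 17650 genes left after independent filtering for low counts and a filter for outlying counts. With independent filtering off, Cfap221 (DESeq2 Padj = 0.0663) and Cfap57 (DESeq2 Padj = 0.0634) were not called. The edgeR 4.0.16 quasi-likelihood test, other scalings and filters, and leaving out each library were alternatives, and the code was tested on simulated data. Lengths and coordinates came from GENCODE M21 (GRCm38). The names were the 12 called genes with the largest fold changes and no overlap, the 6 most abundant per kilobase, those the study names, the most abundant of each group and up to 6 with a mean of at least 100 and Padj of at least 0.5. Further genes are named to complete counts. The genes, lists and tests were chosen with earlier results of these data known.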

Additional observations from a re-analysis of the deposited data

How the results depend on the processing

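Of the 13 alternative fits, total-count size factors had the largest effect. With them 6 genes were called lower (1.28% of all genes tested in that fit) in place of 23 (3.42% of all genes tested). The median log2 fold change of the axonemal genes was −0.48 in place of −0.73, because the scaling moved the median of all genes by 0.25. The direction of Cfap43 then turned, to 0.091. Leaving out each library in turn gave 19 to 22 genes called lower, with 21 without IDPN 2, and medians from −0.79 to −0.70. The share of all genes called was not computed for these fits. Over these 6 fits Cfap74 ran from −0.036 to 0.21 and Cfap20 from −0.050 to 0.22, so that their signs turned, while neither was called in any. With every gene that had any count included, the median was −0.80. edgeR called 20 genes lower (2.19% of all genes), and 24 were lower with the adjusted p alone (3.9% of all genes). No alternative called a gene higher. Of 338 alternative values for the 26 genes named by the rule, 302 kept their direction and side of the threshold, 32 lost the call and 4 changed sign. No paired analysis was possible because the labels give the animals no shared replicate numbers. With 3 animals per group, an exact permutation test of a single value cannot give a p under 0.10. Depth limits the 5 genes with a mean under 10 normalized counts, for which a difference was not detectable.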

Other observations

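Among the 47 axonemal genes that averaged at least 10 normalized counts, the log2 fold change differed with the length of the merged exons. The 26 genes under 4000 bases had 15 genes called lower and a median log2 fold change of −0.84. The 21 longer genes had 8 called lower and a median of −0.46. Over all genes tested 3.42% were called lower, and that share was not taken by length, so these counts lack a background of their own. Across these 47 genes, which share the same 6 libraries, Spearman's rho between log2 fold change and length was 0.31. Across all genes with a mean of at least 10 normalized counts it was 0.088. The medians of all genes were −0.033 for the 7887 under 4000 bases and 0.048 for the 8290 longer ones. Length was compared after the values were seen, and no test was made.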
